A study of Mus musculus with 24 samples.

Results

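The late-rise genes are 93 genes of the mouse dorsal root ganglion (DRG) whose RNA stood well above the control level 5 days after a sciatic nerve lesion. At day 2 their RNA was little higher than in control, or lower. They were selected on the lesion contrasts themselves, so their day 2 and day 5 differences are given below as a description, with no test. The choice used 108 probes among 41174 on the array, which carries 27398 gene names. On the scale of the choice, the log2 processed signal after each sample was scaled to the same 75th percentile, a probe had to be higher at day 5 than in control by at least 0.8, higher at day 2 by at most 0.3, and well above background in all 8 day 5 samples. No lower limit was set at day 2, and the lowest day 2 difference of a chosen probe was -0.9 on this scale. Of the 1328 probes that met the day 5 conditions, 868 were also higher by at least 0.8 at day 2, so the late-rise probes were a small part of the probes up at day 5. The mirror choice, up at day 2 and higher than control by at most 0.3 at day 5, held 22 probes.

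The samples were total RNA of whole DRGs at lumbar levels L4 and L5 from adult male C57BL/6J mice. The lesion transected the sciatic nerve of the left hind leg, whose ends were then sutured together, and the mice received the analgesic Temgesic until day 3. Ganglia were taken at day 2 and day 5, and the control ganglia came from the uninjured side. WT mice were Nfil3 +/+ and KO mice were their Nfil3 -/- littermates, which lack the transcriptional repressor Nfil3 in all cells because the floxed allele was deleted in the germ line by a Cre driven from the human CMV promoter. Each of the 6 groups held 4 samples, 2 labelled with Cy3 and 2 with Cy5, on 12 Agilent arrays of 3 slides, so that each array carried 2 samples. The labels name the tissue as DRG neurons, but the ganglia were not sorted and hold glia, macrophages, vessels and blood as well.

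The share of probes flagged well above background ran from 54.5% to 72.3% over the samples. None of the spots of the late-rise probes was saturated. Nfil3, the deleted gene, gave between 8.52 and 11.16 on the log2 scale in the 12 WT samples and between 2.89 and 7.66 in the 12 KO samples. The highest KO value belonged to KO control replicate 4, whose title says control while another label says day 5. It is used here as a control. Without it, the median day 5 difference of the 108 probes was 0.92 in place of 0.90, and the median day 2 difference was 0.09 in place of 0.06.

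Macrophages are resident in every DRG and sit close to the neurons and their satellite glia. After injury of the peripheral axon they multiply in the ganglion, and monocytes enter from the blood. They are known by the receptor for colony-stimulating factor 1, by lysozyme and by receptors that take up debris and sense complement, lectin ligands and nucleotides. Of the 93 late-rise genes, 9 are on a macrophage and myeloid list, 64 were given a role by hand and 29 were given none. In whole ganglia, more cells of a type and more RNA per cell cannot be told apart.

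Values from here on are log2 intensities after Edwards background correction and quantile normalization, with outlier spots left out, which is not the scale of the choice. On it, the median of the 108 probes was 0.90 above control at day 5 and 0.06 above control at day 2, beside -0.04 and -0.02 over all probes. The median day 5 difference was 0.99 in WT and 0.84 in KO, and 106 of the 108 probes were higher at day 5 than in control in both genotypes. 71 probes still met both thresholds on this scale, 36 fell under the day 5 threshold and 1 exceeded the day 2 limit. In 66 probes the lowest day 5 sample lay above the highest control sample, against 5.07% of all probes, and in 53 it lay above the highest day 2 sample, against 0.804%. In none did the lowest day 2 sample lie above the highest control, against 3.41%. The choice fixed these shares, and nothing is read from them. The differences were modest: the median late-rise probe was under 2-fold higher at day 5, and its 8 day 5 samples spread over 0.69 and its 8 controls over 0.81.

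**Figure D1:**
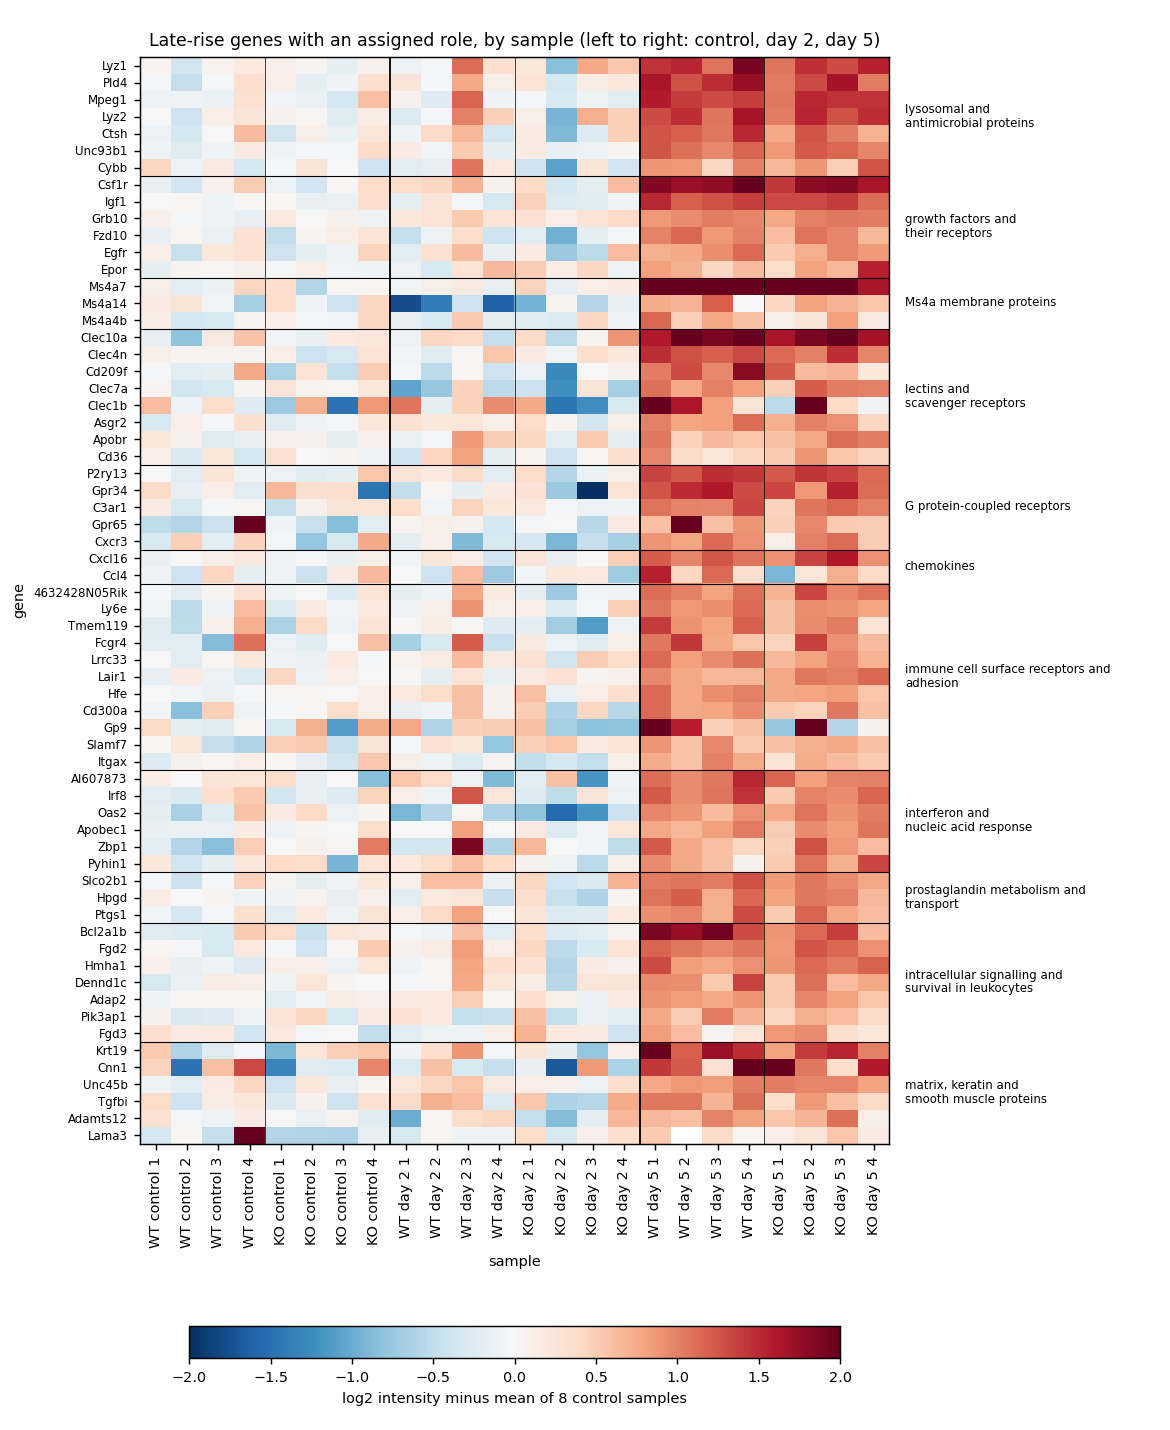
Heat map of the 64 late-rise genes with an assigned role, 1 probe per gene (the brightest one chosen), in the 24 samples. Colour is the log2 intensity minus the mean of the 8 control samples, columns are ordered control, day 2 and day 5 with WT before KO, and the single white cell of Lama3 is a spot left out as an outlier. The day 5 columns are red across nearly all genes, while WT day 2 replicate 3 is the reddest column of day 2.

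The largest late rise belonged to Ms4a7, a macrophage member of the tetraspan Ms4a family. Its brighter probe (A_51_P277216, mm9 chromosome 19, bases 11396026 to 11396801) gave a lowest, median and highest value of 7.01, 7.63 and 8.03 in the controls, 7.43, 7.73 and 8.05 at day 2, and 9.24, 9.82 and 9.95 at day 5. All 8 day 5 samples lay above all 16 others, and day 2 and control overlapped almost completely. The means were 4.45-fold apart between day 5 and control, and a second probe gave 4.28-fold. The other Ms4a genes were much weaker. Ms4a14 differed by 0.63 at day 5 and by -0.86 at day 2, where no sample was well above background. Ms4a4b, a lymphocyte gene, differed by 0.54, with control and day 5 samples overlapping.

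Csf1r, the receptor that macrophages need for survival, had 3 probes on the array. The brightest (A_51_P365885) ran from 8.31 to 9.20 in the controls with a median of 8.64, from 8.35 to 9.37 at day 2 with a median of 9.07, and from 10.11 to 10.75 at day 5 with a median of 10.47. The mean was 3.40-fold higher at day 5 and 1.20-fold higher at day 2. Again no day 5 sample overlapped an earlier one. The second chosen probe gave 2.67-fold. The third, at 1.08 for day 5 on the log2 scale, was left out by the choice because its day 2 difference of 0.32 on the scale of the choice passed the limit.

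Insulin-like growth factor 1 (Igf1), a secreted growth factor that macrophages also make, was chosen through 3 of its 4 probes. The probe printed in 10 spots per array gave 7.50, 7.66 and 7.98 as lowest, median and highest control values, 7.33, 7.50 and 8.11 at day 2, and 8.76, 8.97 and 9.15 at day 5. The day 5 samples kept close together, with an SD of 0.12 (n = 8), and all lay above the others. The mean was 2.48-fold higher at day 5 and 0.960-fold at day 2. Grb10, an adaptor that dampens insulin and Igf1 receptor signals, was 1.95-fold higher at day 5 by its brighter chosen probe. The other chosen probe, just inside the day 2 limit, gave 1.74-fold. Fzd10, a Wnt receptor, was 1.89-fold higher by its chosen probe, and Epor, the erythropoietin receptor, 1.68-fold. Unchosen probes of Grb10 and Fzd10 differed by only 0.36 and 0.13 on the log2 scale. Both were well above background in all 8 day 5 samples.

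In Egfr, the epidermal growth factor receptor gene, the probes differed from each other. The 3 chosen probes, at mm9 chromosome 11 bases 16812181 to 16812240, 16813815 to 16813874 and 16817630 to 16817689, differed from control by 0.68, 0.83 and 0.46 at day 5 and by -0.16, 0.01 and -0.33 at day 2. Another 2 probes upstream on the same chromosome, at 16783545 to 16783604 and 16787385 to 16787444, differed by 1.73 and 2.59 at day 5 and already by 0.87 and 1.45 at day 2. The late pattern was thus a feature of the 3 chosen probes, and 1 more probe was not well above background in any day 5 sample.

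Another 7 genes encode proteins of the lysosome and of antimicrobial defence. Lyz2, the lysozyme of macrophages, gave 12.70, 13.18 and 13.38 as lowest, median and highest control values by its brighter probe, 12.19, 13.42 and 14.13 at day 2, and 14.15, 14.50 and 14.77 at day 5. Day 2 was the widest of the days, with the highest value, 14.13 in WT day 2 replicate 3, just under the lowest of day 5. The mean was 2.55-fold higher at day 5. Lyz1 was 2.66-fold higher, but the lysozyme genes are near-identical neighbours and their probes may read both. Mpeg1, a pore-forming protein of macrophages, was 2.62-fold higher at day 5 and 1.02-fold at day 2. Pld4, an endolysosomal nuclease, was 2.63-fold higher, Unc93b1, which carries the nucleic acid-sensing Toll-like receptors to endosomes, 2.13-fold, the protease Ctsh 2.13-fold and Cybb, the catalytic subunit of the phagocyte NADPH oxidase, 1.76-fold. Over this group the median day 5 difference was 1.35, by the brightest chosen probe of each gene. An unchosen Unc93b1 probe, well above background in all 8 day 5 samples, differed by only 0.23.

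Among receptors for sugars and lipids, Clec10a, a galactose-type lectin of macrophages and dendritic cells, was the leading gene. Its control values were 6.18, 7.06 and 7.56 (lowest, median, highest), those of day 2 were 6.45, 7.21 and 7.88, and those of day 5 were 8.58, 8.87 and 9.57. The mean was 3.82-fold higher at day 5, and no sample overlapped. Clec4n, which encodes the fungal receptor dectin-2, was 2.36-fold higher at day 5, with 5.51 the highest control and 6.21 the lowest day 5 value. Clec7a, which encodes dectin-1, went the other way at first: its difference was -0.49 at day 2, with values from 5.72 to 7.41 beside 6.58 to 7.21 in the controls, and 0.93 at day 5. Asgr2, Apobr and Cd36, receptors for desialylated glycoproteins, apolipoprotein B and fatty acids, differed by 0.85, 0.78 and 0.55 at day 5.

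The G protein-coupled receptors included Gpr34 and P2ry13, a lysophosphatidylserine and an ADP receptor found on microglia and macrophages. P2ry13 ran from 4.25 to 5.05 in the controls, from 3.90 to 4.88 at day 2 and from 5.63 to 5.97 at day 5, which made day 5 the narrowest group. The mean was 2.52-fold higher at day 5, and 5 of 8 control samples were well above background. Gpr34 was 2.48-fold higher at day 5, but was well above background in only 2 controls and in no day 2 sample, so its earlier levels have little precision. C3ar1, the receptor of the complement fragment C3a, was 2.01-fold higher. Cxcr3, a chemokine receptor of T cells, differed by -0.46 at day 2 and by 0.81 at day 5, and its groups overlapped.

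The chemokine Cxcl16, which exists as a membrane-bound scavenger receptor and as a secreted ligand, gave 6.44 to 6.78 in the controls, 6.21 to 7.08 at day 2 and 7.51 to 8.19 at day 5 by one probe. The mean was 2.24-fold higher at day 5, and the second probe gave 2.12-fold. Ccl4, a chemokine of activated macrophages and lymphocytes, differed by only 0.48, and its day 5 samples ran from 3.39 to 5.86, across the whole control range of 3.88 to 4.96.

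Cell surface receptors with inhibitory or adhesive roles had smaller differences, between 0.65 and 1.01 over 11 genes by the brightest chosen probe of each. Lair1, an inhibitory collagen receptor, was 2.33-fold and 1.84-fold higher at day 5 by its 2 probes. The inhibitory receptor Cd300a was 1.72-fold higher and the activating receptor Fcgr4, which binds IgG, 1.86-fold. Itgax, the integrin chain of CD11c, was the smallest at 1.57-fold and sat just inside the day 5 threshold. Tmem119, often used to tell microglia from other macrophages and also made in bone and stroma, was 1.86-fold higher, from 7.07 in control to 7.96 at day 5 on the log2 scale. Its highest control, 7.8, lay above its lowest day 5 sample, 7.35. Control and day 5 samples also overlapped in Cd300a, Fcgr4 and Itgax. An unchosen Cd300a probe, well above background in all 8 day 5 samples, differed by only 0.02 at day 5.

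Among the interferon and nucleic acid genes, Oas2, an antiviral enzyme, had the deepest dip at day 2. It ran from 5.01 to 6.23 in the controls, from 4.11 to 5.68 at day 2 and from 6.30 to 6.75 at day 5. Its difference was -0.75 at day 2 and 0.90 at day 5. Irf8, a transcription factor required for macrophage and dendritic cell fates, was 2.05-fold higher at day 5, with 1 day 2 sample, WT replicate 3, at 8.66 among day 5 values of 7.94 to 8.86. Zbp1, a sensor of Z-form nucleic acids, had the same sample at 8.67, above every day 5 sample, and was 1.71-fold higher at day 5. Of the 47 genes on a wider interferon list, 6 passed the limma test upward at day 5, against 10.1% of all genes, and 6 at day 2, against 9.46%. The list holds 3 late-rise genes selected on these contrasts, and any pass of theirs is no test.

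Prostaglandin genes made a small group of 3: Ptgs1, which encodes cyclooxygenase 1, was 1.83-fold higher at day 5, Hpgd, which breaks prostaglandins down, 1.95-fold, and the organic anion transporter Slco2b1 2.02-fold. Of the leukocyte signalling genes, Bcl2a1b, a survival factor of the Bcl2 family with near-identical copies that its probe may also read, was 2.57-fold higher. Fgd2 and Hmha1, regulators of small GTPases, were 2.07-fold and 2.01-fold higher.

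Other late-rise genes are better known outside the leukocytes. Krt19, an epithelial keratin, ran from 5.23 to 6.69 in the controls, from 5.35 to 7.01 at day 2 and from 6.94 to 8.17 at day 5, and was 2.62-fold higher in the mean. Cnn1, a smooth muscle calponin, was 2.42-fold higher, but its controls ran from 5.25 to 8.05 and overlapped with day 5 values of 7.03 to 8.90. Dach2, a transcription cofactor, was well above background in 1 control and no day 2 sample. Tgfbi, a secreted matrix protein, was 1.69-fold higher from a bright control level of 12.14. Zmynd15, which lies beside Cxcl16, was 2.61-fold higher, and Gm5086, given no role, 2.34-fold. Cela1 differed from control at day 5 by 1.12 in WT and 0.9 in KO by one probe, and by 1 and 0.91 by the other.

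**Figure D2:**
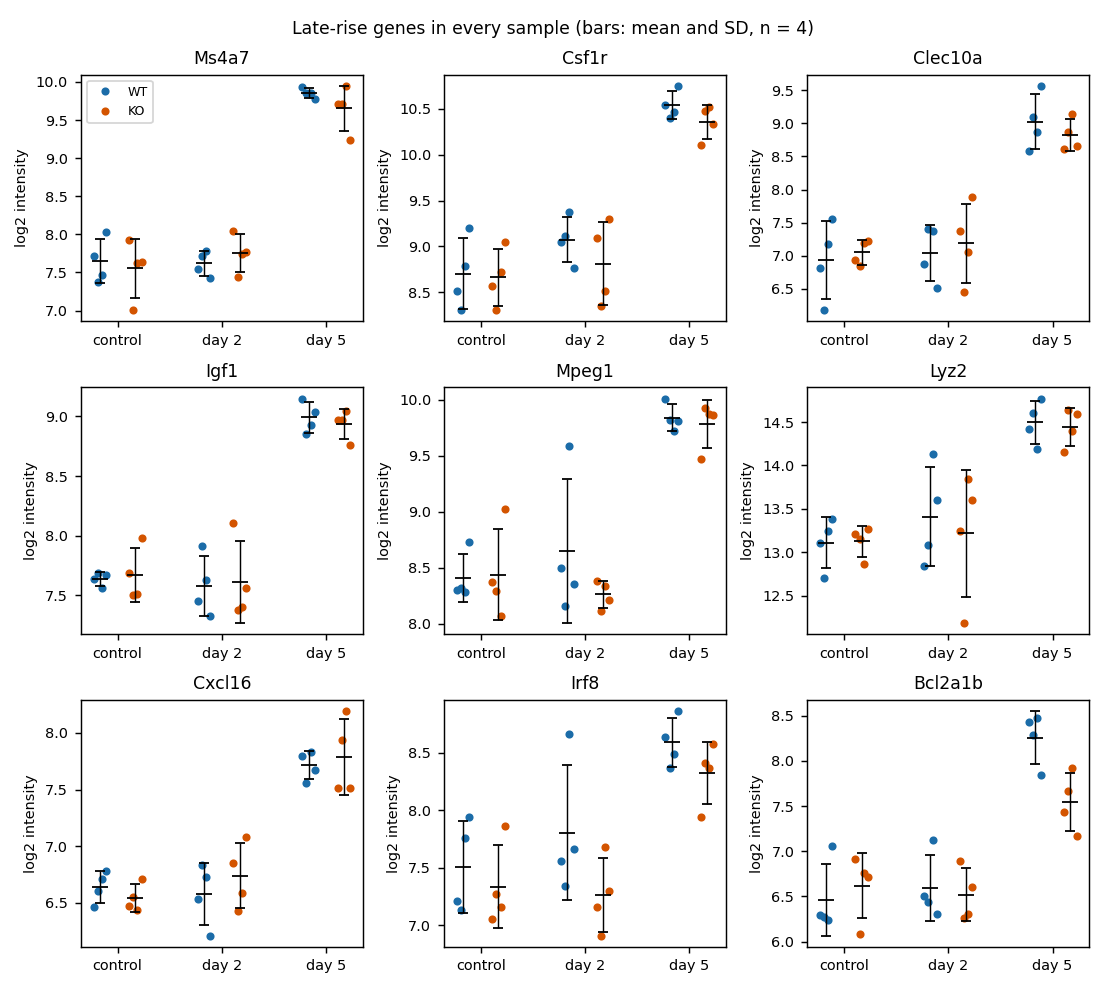
Log2 intensity of 9 late-rise genes in every sample, by day and genotype; points are samples and bars are the mean and SD of 4. In 7 panels every day 5 sample stands above all others, in Mpeg1 and Irf8 WT day 2 replicate 3 (9.59 and 8.66) reaches the day 5 range, and WT lies above KO at day 5 in Bcl2a1b with 1 sample of overlap.

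5 of the 108 probes owe their place to a single array. The 2 samples of an array share each spot, and in these probes both stood at least 1.5 above the median of the other samples of their day, on the scale of the choice. The Esco1 probe, which had the largest difference of all at 2.34, read 18.39 in KO day 5 replicate 1 and 14.05 in WT day 5 replicate 3, which shared an array, while the other 22 samples ran from 6.03 to 6.84. The spot carried the scanner's outlier flag in both channels, and without that array the day 5 difference was -0.14. On the normalized scale, where flagged spots were left out, Esco1 differed by -0.15, and its other 2 probes by -0.15 and -0.17. The other 4 were Gpr65, Lama3, Ccdc28a and Evi2a, and all were high on the array shared by WT day 5 replicate 2 and WT control replicate 4. Gpr65, an acid-sensing receptor, read 10.30 and 10.40 there and between 6.20 and 8.28 in the other 22 samples. Since 1 of these samples is a control, the array raised the control mean. Without it the day 2 differences were 0.55 for Gpr65, 0.53 for Lama3, 0.61 for Ccdc28a and 0.31 for Evi2a, all past the limit of 0.3, and the day 5 differences were 1.32, 0.98, 1.02 and 1.64. On the normalized scale, the unchosen Ccdc28a probes differed by -0.12 and -0.22 at day 5, and the unchosen Lama3 probe by 0.04. All of these unchosen probes were well above background in the 8 day 5 samples. The 5 genes of this paragraph were singled out after their values were seen.

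Clec1b and Gp9, both best known from platelets, had the widest spread among the day 5 samples and were also named after their values were seen. Clec1b ran from 4.26 to 7.64 and Gp9 from 4.57 to 7.81 at day 5, beside 3.32 to 5.66 and 4.21 to 6.07 in the controls. The 3 highest samples were the same in both: WT day 5 replicate 1 (7.64 and 7.81), KO day 5 replicate 2 (6.83 and 7.52) and WT day 5 replicate 2 (6.42 and 6.90). KO day 5 replicate 1 was the lowest day 5 sample in both. The other 5 day 5 samples lay between 4.26 and 5.62 for Clec1b and between 4.57 and 5.91 for Gp9, within or close to the control range. Of 18 genes on a blood cell and granulocyte list, 1 passed the test upward at day 5, against 10.1% of all genes, and 1 at day 2, against 9.46%.

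**Figure D3:**
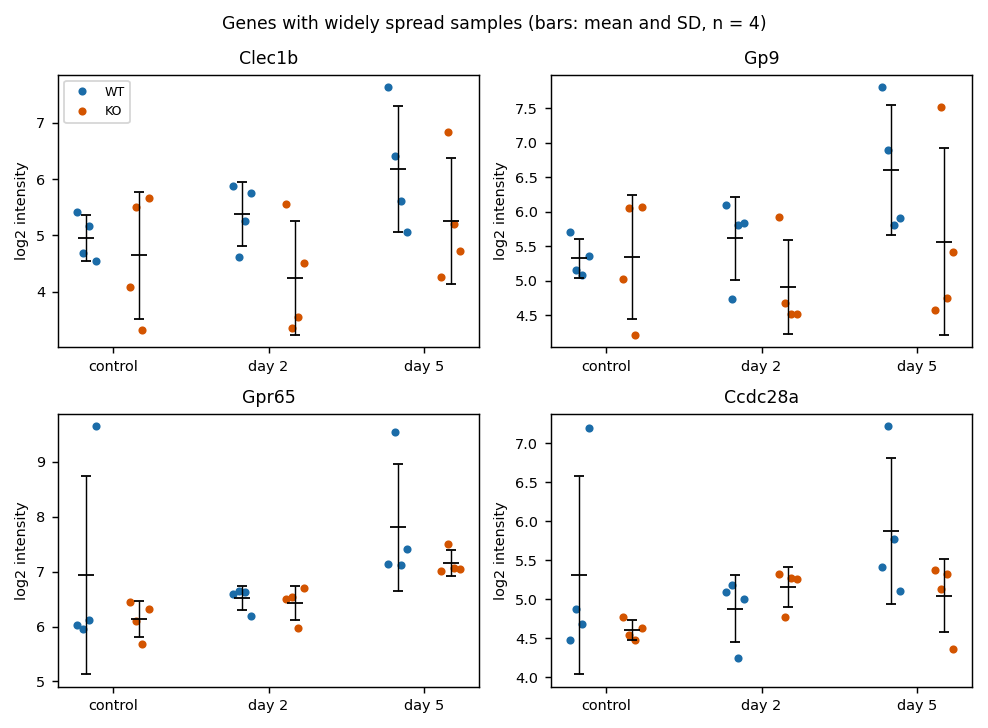
Log2 intensity of Clec1b, Gp9, Gpr65 and Ccdc28a in every sample, by day and genotype, with the mean and SD of 4. Clec1b and Gp9 share their 3 highest day 5 samples, and in Gpr65 and Ccdc28a the 2 highest points are the control and day 5 sample of a single array.

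The values by sample and by batch come from the samples that made the choice, and are a description. Summed up as the median over the 108 probes relative to the control mean, the controls ran from -0.14 to 0.22, the day 2 samples from -0.28 to 0.45, and the day 5 samples from 0.74 to 1.05. The highest controls were KO control replicate 4 at 0.22 and WT control replicate 4 at 0.14, both of which shared an array with a day 5 sample. The highest day 2 sample was WT replicate 3 at 0.45, and the lowest was KO replicate 2 at -0.28. Within slides 1, 2 and 3 the median day 5 difference was 0.92, 0.90 and 0.93. Within Cy3 samples it was 0.96 and within Cy5 samples 0.84. WT day 5 replicate 4 gave the highest day 5 value in 27 probes and WT day 5 replicate 1 in 26, while KO day 5 replicate 1 gave the lowest in 37 and KO day 5 replicate 4 in 31.

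The macrophage and myeloid list held 32 measured genes, each read by its brightest probe. The 23 outside the late-rise set all passed the limma test upward at day 5 (Benjamini-Hochberg adjusted p under 0.05), with a median difference of 1.62. Of all genes, 10.1% passed upward and 13% downward. At day 2, 17 of the 23 passed upward and none downward, against 9.46% and 12.7% of all genes. The 9 late-rise genes on the list (Ms4a7, Csf1r, Lyz1, Lyz2, Mpeg1, Clec7a, Fcgr4, Cybb and Itgax) had been selected on these contrasts, and their median was 0.03 at day 2 and 1.35 at day 5. The other 23 had medians of 0.68 at day 2 and 1.62 at day 5. The day 2 limit of the choice fixed the gap between the 9 and the 23, and nothing is read from it. Among the 23, markers such as Cd68, a lysosomal glycoprotein, at 0.99, the scavenger receptor Msr1 at 1.31 and the mannose receptor Mrc1 at 1.10 were already called higher at day 2. Cx3cr1, the fractalkine receptor, was not called at day 2, with a difference of 0.28, and was 1.79 higher at day 5. The summed intensity of the list, on the log2 scale, ran from 13.74 to 14.42 in the controls, 13.61 to 15.19 at day 2 and 15.31 to 15.90 at day 5.

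**Figure D4:**
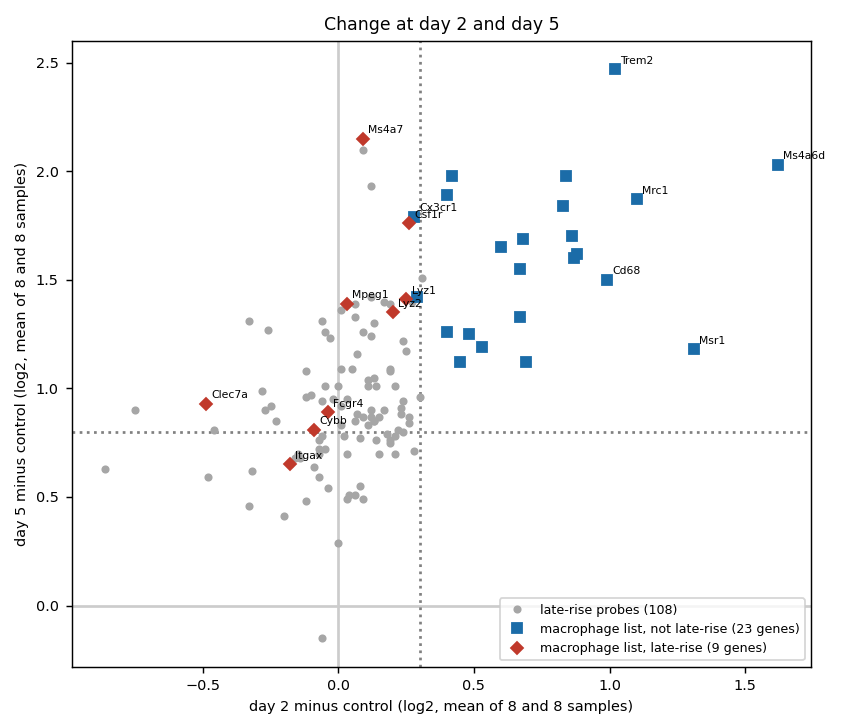
Difference from control at day 2 (horizontal) and day 5 (vertical), each between means of 8 samples on the log2 scale, for the 108 late-rise probes in grey and the 32 genes of the macrophage list. Names are given for the late-rise genes of the list and for a few others. Dotted lines mark 0.3 and 0.8, the limits of the choice, which was made on another scale. The 23 list genes outside the late-rise set spread from 0.28 to 1.62 at day 2, and the 9 inside it lie left of the vertical line.

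Of all genes, 10.1% passed the test upward and 13% downward at day 5, and 9.46% upward and 12.7% downward at day 2, and the counts of the other lists stand beside these shares. Of 12 MHC class II presentation genes, none of which was chosen, 6 passed the test upward at day 5 and 2 downward at day 2: H2-Aa differed by -0.52 at day 2 and 0.66 at day 5, and H2-Ab1 by -0.64 and 0.55, the latter not past the threshold. Of 36 T and NK cell genes, 2 of them late-rise (Cxcr3 and Ms4a4b), 8 passed upward at day 5, and 3 upward and 1 downward at day 2. The 8 include Cxcr3, which was selected on this contrast, so its pass is no test. The others were Cd52, Cxcr6, Gzmb, Nkg7, Il2rb, Klrd1 and Skap1, with day 5 differences from 1.34 in Cd52 to 0.40 in Skap1. The defining T cell genes Cd3e, Cd3d, Cd3g and Cd4 did not pass, with differences of 0.07, 0.38, 0.25 and 0.01 at day 5, and Cd3g and Cd4 were well above background in at most 1 sample of any day. Of 34 chemokine and cytokine genes, 2 of them late-rise, 17 passed upward at day 5 and 16 at day 2. Of 20 complement genes, 1 of them late-rise, 10 passed upward and 1 downward at day 5, and 8 upward and 1 downward at day 2. Of 44 cell cycle genes, 23 passed upward at day 5 and 29 at day 2. Of 29 sensory neuron genes, 20 passed downward at each day. Any late-rise gene in these counts was selected on the same contrasts, so its pass is no test. These lists share all their samples with the choice, and no list was tested as a set.

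The KO minus WT difference itself was not part of the choice. The choice did ask for a rise in the mean over both genotypes. It also asked for signal well above background in all 8 day 5 samples, WT and KO. Genes whose late rise was missing in KO or in WT were thus less likely to be chosen. The genotype comparison covers only the probes that met these conditions, and whether a late rise depended on Nfil3 in other genes was not tested. No late-rise probe was called different between KO and WT at any of the 3 times or in the time by genotype interaction (limma, 0 of 108 each time, smallest adjusted p 1). Over all probes the shares called were 0% in control, 0.00729% at day 2, 0.0121% at day 5 and 0% for the interaction, so the array as a whole gave next to no calls. At an unadjusted p under 0.05, 1 probe passed in control, 8 at day 2, 3 at day 5 and 1 for the interaction, beside 1.73%, 3.91%, 2.47% and 2.38% of all probes. The median KO minus WT difference of the 108 was 0.03 in control ganglia, -0.13 at day 2 and then -0.12 at day 5, with all probes at 0.02, 0.01 and 0.02. These medians rested in part on single samples. The control median was -0.02 with KO control replicate 4 left out and -0.01 with WT control replicate 2 left out. The day 2 median was -0.02 when WT day 2 replicate 3 was dropped and -0.04 when KO day 2 replicate 2 was. At day 5 it was -0.07 if either KO day 5 replicate 1 or replicate 4 was dropped. KO was lower in 41 probes in control, in 80 at day 2 and in 73 at day 5. The probes share samples and are not independent, so these counts carry no p.

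Bcl2a1b had the smallest p at day 5. Its WT day 5 samples gave 8.43, 8.29, 8.47 and 7.84, and its KO day 5 samples 7.43, 7.67, 7.92 and 7.17. The groups overlapped by 1 sample, and the KO mean was lower by 0.71, with an SE of 0.24 (limma unadjusted p = 0.00691, adjusted p = 1). Its interaction had an unadjusted p of 0.0458 by limma. Rasgrf1, an exchange factor best known from neurons, was higher in KO at day 5 by 0.60 ± 0.21 (SE, limma unadjusted p = 0.00885, adjusted p = 1), and Zmynd15 by 0.34 ± 0.15 (SE, limma unadjusted p = 0.0332, adjusted p = 1). Fam26f, an interferon-inducible channel gene, had a KO minus WT difference of -0.32 at day 5 and Ms4a14 one of -0.04. Both were well above background in only 3 controls, and in 2 and 0 samples of day 2, so their earlier genotype differences are not given. The SE was 0.15 to 0.33 for these genes. With 4 samples a group, even the differences of 0.71 in Bcl2a1b and 0.60 in Rasgrf1, well beyond their SE, were not called after adjustment. Genotype differences of that size or smaller are thus not excluded for the late-rise probes.

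**Figure D5:**
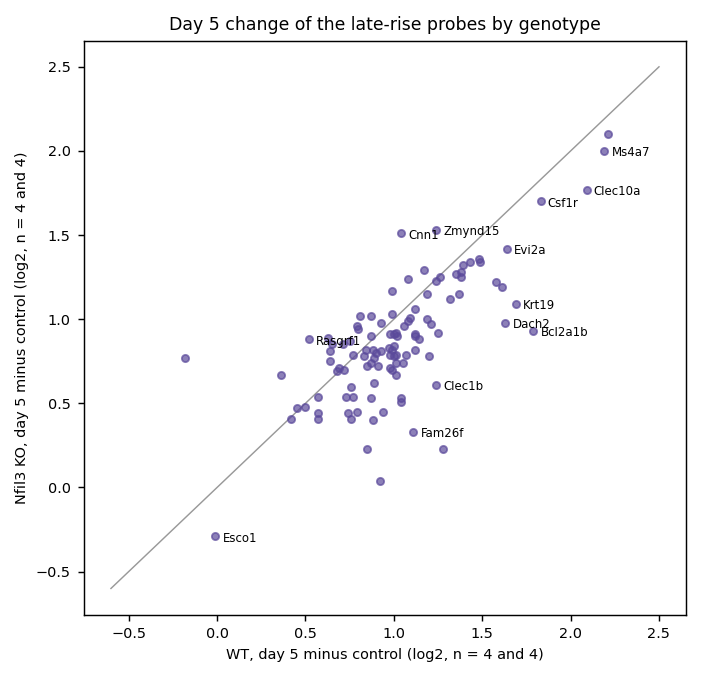
Day 5 minus control on the log2 scale in WT (horizontal) and KO (vertical) for the 108 late-rise probes; the line marks equal change. Points gather along the line with medians of 0.99 in WT and 0.84 in KO, Bcl2a1b lies below it, and Esco1 is near 0 in both once outlier spots are left out.

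Choosing in one genotype and testing in the other separates the choice from the test. The same thresholds in the 12 WT samples alone chose 143 probes, 76 of them among the 108. In KO, 58 of these 143 (40.6%) passed the limma test upward at day 5 and none downward, against 5.54% and 6.03% of all probes, and at day 2, 1 (0.699%) passed upward, against 5.07%, and 3 downward, against 5.84%. Their median in KO was 0.71 at day 5 and -0.09 at day 2. Without WT day 2 replicate 3 the WT choice grew to 188 probes, of which 93 (49.5%) were called in KO at day 5, and without WT control replicate 4 it was 171, of which 44 (25.7%) were called. Ms4a7 was 2.10 higher in KO day 5 than in KO control by its brighter probe, with an SE of 0.18 (limma adjusted p = 9.23e-08), and Clec4n was higher by 1.23 ± 0.17 (SE, limma adjusted p = 3.04e-05). Csf1r was higher by 1.36 ± 0.15 by the brighter of its 2 probes in the WT choice (SE, limma adjusted p = 2.57e-06) and by 1.15 ± 0.20 by the other (SE, limma adjusted p = 0.000514). Of the 3 Igf1 probes chosen in WT, 2 were called in KO, at 1.27 ± 0.15 (SE, limma adjusted p = 6.29e-06) and 1.25 ± 0.18 (SE, limma adjusted p = 8.19e-05), and the dimmest was not, at 0.44 ± 0.22 (SE, limma adjusted p = 0.268). The Cxcl16 probes gave 1.24 ± 0.16 (SE, limma adjusted p = 2.49e-05) and 0.92 ± 0.22 (SE, limma adjusted p = 0.008). The WT choice also held, among others not called in KO at day 5, Itgax, Gpr34, Clec7a, Cxcr3, Tmem119, Cnn1, Fcgr4 and Ccl4. Their KO differences ran from 0.04 ± 0.36 in Ccl4 (SE, limma adjusted p = 0.971) to 1.51 ± 0.6 in Cnn1 (SE, limma adjusted p = 0.123).

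In the other direction, the 12 KO samples alone chose 146 probes, 85 of them among the 108. In WT, 95 of the 146 (65.1%) passed upward at day 5, against 5.90% of all probes, and none downward, against 6.83%. At day 2, 3 (2.05%) passed upward, against 5.01%, and 1 downward, against 4.93%. Their median in WT was 0.99 at day 5 and 0.26 at day 2. The count upward at day 2 moved between 1 and 11 when single samples were left out, the lowest without WT day 2 replicate 3 and the highest without KO day 2 replicate 4. The KO choice also took in Cx3cr1 and the cathepsin gene Ctss, which were 1.82 and 2.06 higher in WT day 5 than in WT control. In WT they were already 0.38 and 0.6 higher than control at day 2. WT and KO samples shared some arrays, so the choice and the test were not wholly separate.

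Several late-rise genes are neighbours on the genome (positions of the array's mm9 annotation, each gene within 500 kb of the next in its run). Asgr2, Clec10a, Cxcl16 and Zmynd15 span 360 kb of chromosome 11. Apobec1, C3ar1 and Clec4n span 668 kb of chromosome 6, where Clec1b and Clec7a lie 56.6 kb from end to end. Ms4a14, Ms4a7 and Ms4a4b span 157 kb of chromosome 19, Lyz1 and Lyz2 10.9 kb of chromosome 10, and Pyhin1 and AI607873, members of the interferon-inducible Ifi200 family whose probes may read more than one copy, 100 kb of chromosome 1. These are known gene families in part, and probes of near-identical copies are not independent.

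The rule used no sequence, so promoters are a separate description. RefSeq promoters (GRCm38.p6, 250 bases before to 50 after a start site) were at hand for 67 late-rise genes, in 81 entries. The letters GAGGAAGT, a site of the myeloid factor PU.1, stood on either strand in 10 of the 81 (12.3%), against 3.20% of all 32851 promoters of that length. By gene the shares were 14.9% of the 67 and 3.46% of 491 genes that were up at both days. The AP-1 letters TGANTCA were in 19.8% of the 81 and 7.81% of all, and by gene in 23.9% of the 67 and 13.2% of the 491. The interferon regulatory letters GAAANNGAA were in 14.8% and 8.56%, and the composite GGAANNGAA, which can overlap GAGGAAGT, in 9.88% and 8.24%. The Nfil3 letters TTATGTAA were in 1 entry (1.23%) against 0.938%, and the palindrome TTACGTAA in none against 0.119%. TATAAA was in 17.3% and 13.6%. The motifs were chosen after the members were known, and a match is only a match of letters.

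The sequences below show Ms4a7, the gene with the largest late rise and the 1 promoter with the Nfil3 letters, and then 4 of the 10 promoters with GAGGAAGT, from genes of different roles. Each is written 5′ to 3′ on the gene's own strand, with matches in capitals. In Ms4a7 (chr19:11334646-11334945, minus strand) the capitals are TTATGTAA read on the other strand, GAAANNGAA and TGANTCA, whose first bases lie 181, 148 and 81 bases before the start site.
Ms4a7: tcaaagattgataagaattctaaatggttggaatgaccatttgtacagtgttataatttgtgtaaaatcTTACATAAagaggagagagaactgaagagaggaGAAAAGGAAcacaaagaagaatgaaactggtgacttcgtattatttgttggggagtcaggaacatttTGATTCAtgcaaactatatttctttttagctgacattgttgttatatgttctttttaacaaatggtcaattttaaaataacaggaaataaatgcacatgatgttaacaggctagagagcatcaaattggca
In Pld4 (chr12:112760405-112760704, plus strand) the capitals run over GAGGAAGT and the overlapping GGAANNGAA, and begin 9 bases past the start site.
Pld4: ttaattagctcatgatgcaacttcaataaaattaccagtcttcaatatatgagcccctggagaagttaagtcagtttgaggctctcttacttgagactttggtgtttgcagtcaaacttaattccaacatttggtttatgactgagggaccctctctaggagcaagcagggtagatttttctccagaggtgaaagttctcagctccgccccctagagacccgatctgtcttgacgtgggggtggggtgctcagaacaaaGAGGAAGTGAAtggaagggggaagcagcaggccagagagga
In Fcgr4 (chr1:171018676-171018975, plus strand) GAAANNGAA begins 73 bases and GAGGAAGT, on the other strand, 24 bases before the start site.
Fcgr4: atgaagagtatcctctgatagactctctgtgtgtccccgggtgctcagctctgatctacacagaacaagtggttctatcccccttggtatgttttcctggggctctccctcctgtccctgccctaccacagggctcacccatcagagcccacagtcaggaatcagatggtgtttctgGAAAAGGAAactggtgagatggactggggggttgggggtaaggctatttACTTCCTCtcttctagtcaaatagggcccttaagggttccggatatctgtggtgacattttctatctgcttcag
In Slco2b1 (chr7:99711291-99711590, minus strand) GAGGAAGT begins 6 bases past the start site and runs into TGANTCA.
Slco2b1: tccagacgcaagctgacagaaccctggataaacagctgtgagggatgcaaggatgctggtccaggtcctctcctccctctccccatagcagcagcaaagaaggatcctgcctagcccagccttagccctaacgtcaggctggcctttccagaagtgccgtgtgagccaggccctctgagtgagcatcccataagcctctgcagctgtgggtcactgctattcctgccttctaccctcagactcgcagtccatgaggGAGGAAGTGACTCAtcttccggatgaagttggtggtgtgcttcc
In Fgd2 (chr17:29360664-29360963, plus strand) GAGGAAGT on the other strand begins 1 base past the start site.
Fgd2: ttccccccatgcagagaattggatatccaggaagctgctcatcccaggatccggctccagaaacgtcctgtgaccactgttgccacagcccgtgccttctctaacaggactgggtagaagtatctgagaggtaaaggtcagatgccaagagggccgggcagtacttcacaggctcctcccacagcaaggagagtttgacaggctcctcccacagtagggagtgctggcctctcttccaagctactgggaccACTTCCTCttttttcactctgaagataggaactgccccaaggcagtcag
The other 6 promoters with GAGGAAGT belong to Apobr, Bcl2a1b, Cxcr3, Dennd1c, Fgd3 and Ptgs1. In these 10 the first base of the match lay between 148 bases before and 9 bases past the start site.

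Some limits of the set are visible at its edges. Just inside the day 5 threshold were another Igf1 probe at 0.8011 and Itgax at 0.8032, and just outside it Ptplad2 at 0.7987 and Plbd1 at 0.7971, on the scale of the choice. At the day 2 limit, Grb10 at 0.295 and 1810011H11Rik at 0.294 were inside, and Hist1h4i at 0.31 and Ptpn5 at 0.316 outside. The 93 genes had another 53 probes on the array that were not chosen, from 37 of the genes. Of these, 40 were under the day 5 threshold, 13 over the day 2 limit and 22 not well above background in all day 5 samples, with some counted more than once, and 41 were higher at day 5 than in control. The control level of the 108 had a median of 6.07, close to 5.98 for the 868 probes up at both days and below 7.85 for all probes well above background in the 8 day 5 samples. In the controls, 69 of the 108 were well above background in all 8 samples and 14 in 4 or fewer.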

How the data were processed

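The deposited files hold one Agilent Feature Extraction scan per 2-colour array, from which the authors' intensity columns were read: mean and median foreground, median background, and the processed signal, already background-subtracted and dye-normalized by the scanner software, in the channel of each sample. Each channel was treated as its own 1-colour sample. Late-rise genes were chosen by the processed signal: scaled to a common 75th percentile over non-control spots, floor 1, log2, spots of a probe averaged. For all other values, mean intensities were corrected by Edwards' method and quantile normalized over the 24 channels, as in the study's methods, outlier-flagged spots were left out and spots averaged. limma 3.58.1 in R 4.3.3 was fitted with a mean per group over all 24 samples, without covariates, and p-values were adjusted by Benjamini-Hochberg over 41174 probes at 0.05. The scripts were tested on simulated data. Named genes were the 12 with the largest day 5 difference, members on the gene lists, the smallest genotype p-values, genes at the thresholds and genes with several chosen probes; a few others were named after their values were seen. The members and gene lists were chosen with earlier results of these data known. Replicates are separate samples by their labels, and the number of arrays limits the precision. RefSeq symbols were matched for 87 of the 93 genes. Alternatives tried were other background corrections and scalings, filters, dye, slide, array and replicate number in the model, and each sample left out.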

Additional observations from a re-analysis of the deposited data

Results flagged for a closer look

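Sample values of the median over the 108 late-rise probes and of the 12 genes with the largest day 5 difference were examined in the 6 groups of 4 for a sample far from the other 3. Of 88 such groups, 6 held one, and chance gives about 1 in 20. KO control replicate 4 stood apart in 3 of them: the median over the 108 probes was 0.22 in it and at most -0.01 in the other KO controls, Gpr34 was 2.21 with 3.99 the nearest, and P2ry13 was 5.05 with 4.37 the nearest. Bcl2a1b was 7.06 in WT control replicate 4, with 6.29 the nearest. Dach2 was 4.62 in WT day 5 replicate 3, with 5.01 the nearest. Csf1r, by the dimmer of its 2 chosen probes, was 6.53 in WT day 2 replicate 2, with 6.92 the nearest.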

How the results depend on the processing

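The number of late-rise probes was 108. It was 38 with normexp (offset 50), of which 24 were shared, 52 with thresholds of 1 and 0.2, and 262 within Cy3 samples, of which 76 were shared; the cause was not tested. The other settings gave 102 to 147, and leaving out a sample 99 to 122. No late-rise probe was called between KO and WT or for the interaction under any setting run, including each sample left out (0 to 0). Of the WT choice, 44 to 93 probes were called higher in KO at day 5 when a sample was left out (58 with all). At day 2 it was 1 with all samples, 0 to 4 with a sample left out, 2 with normexp, with the median foreground and with dye, 3 among probes well above background in 4 or more samples, and 0 without both controls that shared an array with a day 5 sample, a setting chosen after seeing the data. Of the KO choice, 81 to 115 were called higher in WT at day 5 with a sample left out. At day 2 it was 3 with all samples, 1 to 11 with a sample left out, 10 on processed signals, 7 among probes well above background in 4 or more samples, 6 with slide and 5 with array as a block.

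With replicate number as a block, the day 2 counts were 2 for the WT choice and 5 for the KO choice, the day 5 counts 57 and 98, and the genotype counts 0. The deviations of same-numbered WT and KO samples correlated between -0.11 and 0.185, over 0.1 in 3 of 12 pairs. Same-numbered control and lesion samples of a genotype, which may share a mouse, correlated between -0.116 and 0.256, over 0.1 in 3 of 16, and differently numbered ones between -0.236 and 0.285. The numbers were therefore not taken to pair the samples, and the labels do not say which control came from which lesioned mouse. The median KO minus WT difference was -0.05 at day 2 and -0.06 at day 5 with normexp. For the named genes, 47 of 112 differences moved by more than 1 SD with normexp and 14 on processed signals, where Esco1 was 2.34 in place of -0.15 at day 5.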
